A study of Mus musculus with 4 samples.

Results

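The genes described here are 50 genes of the cell division cycle, taken from the 46041 genes that the deposited tables hold after overlapping loci of a symbol were summed. They were chosen by symbol, with earlier results of these data known, and were split by phase. G1 holds 15 genes (D and E cyclins, their kinases, inhibitors, Rb1 and the E2F activators), S phase 14 and the mitotic group 21. All 50 genes were measured in γδ T cells of epididymal fat from male C57Bl/6 mice aged 16 to 22 weeks, and every mouse carried the PLZF-GFP reporter. The cells were sorted into a PLZF+ and a PLZF- subset, with 2 SMART-seq2 libraries (a full-length cDNA method for few cells) per subset and 10 mice pooled in each. PLZF is a transcription factor of innate-like lymphocytes and is encoded by Zbtb16. The columns of the tables name PLZF- libraries A6 and B6 and PLZF+ libraries A7 and B7, with no replicate number. No antibody or gate of the sort is stated in the sources used here, nor whether the same mice gave both subsets, and no treatment is recorded for either subset.

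As background, a cell that leaves G1 does so when cyclin D with CDK4 or CDK6, and then cyclin E with CDK2, phosphorylate the retinoblastoma protein and free the E2F factors, which switch on genes of DNA replication. Genes of G2 and mitosis are switched on later, and many carry a short promoter element called CHR (cell cycle genes homology region) together with CCAAT boxes. In resting cells the DREAM complex represses both waves, so in lymphocytes mRNA of the S phase and mitotic genes is commonly read as a mark of dividing cells, while D cyclins are present in many resting T cells.

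The sequence elements of these 2 waves could be read in RefSeq promoters of 40 of the 50 genes (build GRCm38.p6, 250 bases before to 50 after a gene's start, 45 promoters). The E2F core was searched as TTNNCGC with a C or a G at each N, the CHR as TTTGAA and the CCAAT box as CCAAT, each on both strands. The E2F core was found in 69.2% of the 13 promoters of S phase genes, in 20% of the 15 of G1 genes and in 17.6% of the 17 of mitotic genes, against 9.57% of all 32851 promoters in the table. The CHR was found in 70.6% of the mitotic promoters, in 7.69% of the S phase and in 6.67% of the G1 promoters, against 17.9% of all. CCAAT was found in 88.2%, 69.2% and 46.7% of the mitotic, S phase and G1 promoters, against 37.4% of all. Of the 29 E2F matches in these promoters, 10 shared bases with another E2F match and 3 with a CCAAT match. A match is only a run of letters, and binding was not measured here. The 7 stretches printed next are the 200 bases just before the start of 4 mitotic genes, 2 replication genes and 1 G1 inhibitor, read 5′ to 3′ on the gene's own strand. They show the letters behind these shares, and capitals mark every match to the 3 motifs, so a longer run of capitals holds matches that touch or overlap. Cdk1 lies at chr10:69352913-69353112 (minus strand), Top2a at chr11:99024190-99024389 (minus), Kif11 at chr19:37376182-37376381 (plus) and Ube2c at chr2:164769729-164769928 (plus). Mcm5 lies at chr8:75109309-75109508 (plus), Mcm6 at chr1:128359706-128359905 (minus) and Cdkn1b at chr6:134920201-134920400 (plus).
Cdk1: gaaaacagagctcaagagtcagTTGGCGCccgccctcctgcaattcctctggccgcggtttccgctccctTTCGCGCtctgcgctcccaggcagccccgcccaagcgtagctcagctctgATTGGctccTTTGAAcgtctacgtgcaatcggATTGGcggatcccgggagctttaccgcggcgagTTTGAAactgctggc
Top2a: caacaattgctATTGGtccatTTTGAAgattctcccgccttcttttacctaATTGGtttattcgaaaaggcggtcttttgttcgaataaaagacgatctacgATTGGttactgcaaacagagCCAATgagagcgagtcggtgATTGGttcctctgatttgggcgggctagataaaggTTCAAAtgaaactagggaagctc
Kif11: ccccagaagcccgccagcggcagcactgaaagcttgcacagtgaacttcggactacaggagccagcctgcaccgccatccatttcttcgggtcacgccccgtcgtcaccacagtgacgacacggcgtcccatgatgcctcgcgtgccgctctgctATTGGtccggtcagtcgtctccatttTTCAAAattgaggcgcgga
Ube2c: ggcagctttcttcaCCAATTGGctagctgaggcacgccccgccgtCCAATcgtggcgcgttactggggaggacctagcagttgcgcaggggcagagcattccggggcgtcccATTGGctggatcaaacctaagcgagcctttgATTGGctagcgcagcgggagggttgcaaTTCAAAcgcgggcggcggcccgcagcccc
Mcm5: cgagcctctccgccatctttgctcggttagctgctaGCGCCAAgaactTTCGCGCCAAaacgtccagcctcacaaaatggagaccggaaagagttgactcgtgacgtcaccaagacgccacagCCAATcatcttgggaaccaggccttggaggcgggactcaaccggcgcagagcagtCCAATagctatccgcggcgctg
Mcm6: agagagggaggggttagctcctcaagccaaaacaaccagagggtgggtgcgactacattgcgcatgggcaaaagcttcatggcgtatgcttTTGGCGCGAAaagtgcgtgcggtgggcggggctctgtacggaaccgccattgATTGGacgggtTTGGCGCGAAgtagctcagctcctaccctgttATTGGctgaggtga
Cdkn1b: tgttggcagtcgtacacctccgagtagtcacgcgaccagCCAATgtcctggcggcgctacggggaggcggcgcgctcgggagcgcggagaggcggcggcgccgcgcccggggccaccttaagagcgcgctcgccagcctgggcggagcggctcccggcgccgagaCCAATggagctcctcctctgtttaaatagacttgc
The stretch of Cdk1 held 2 E2F cores, 2 CHR and 2 CCAAT matches. Those of Top2a, Kif11 and Ube2c held CHR and CCAAT matches and no E2F core. Mcm5 and Mcm6 held 3 and 4 E2F cores and no CHR. Cdkn1b held 2 CCAAT matches alone.

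Depth differed between the subsets. Without the rRNA precursor Rn45s, the PLZF- libraries held an estimated 744570 (A6) and 981886 (B6) reads and the PLZF+ libraries 1837511 (A7) and 2035066 (B7). Zbtb16, which checks the sort, stood at 310.4 and 699 normalized counts in A6 and B6 and at 2899 and 2921 in A7 and B7. T cell markers were present in all 4 libraries. The 6 with a row of 10 listed summed to 2099 and 2996 normalized counts in PLZF- and to 7174 and 7705 in PLZF+ cells. Cd3d, Cd3e, Cd3g, Cd247 and the row that holds Tcrg-C3 were higher in PLZF+ cells by limma. All 9 tested of 11 markers of natural killer and innate lymphoid cells were lower there. Their sum over the 11 was 4838 and 4312 against 264 and 162, with 0 of them at 0 in either PLZF- library and 2 and 4 at 0 in A7 and B7. Of 10 dendritic cell and MHC class II markers on 9 rows, 5 rows were lower, and the sums were 1845 and 905 against 177 and 80.3. Markers of macrophages, B cells, αβ T cells, stroma, adipocytes and red cells each summed to at most 36.6 normalized counts in any library, and endothelial markers to between 113 and 159.8. No row held Trac, Trbc1 or Trbc2, so the αβ T sum covers 4 of 7 markers, and none held Trdc, Adgre1 or Jchain. Of the endothelial sums, Pecam1 alone gave 99.5 and 115 in A6 and B6 and 159.8 and 153 in A7 and B7. The cell cycle values compare libraries that also differ in these markers and in depth. The part of the markers in them was not tested, and results after thinning to equal depth are given with the mitotic genes.

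Among the 50 genes, Cdk1 and Stmn1, both mitotic, passed the test and were higher in PLZF+ cells, and 0 were lower. Cdk1 was tested only because its PLZF+ level lifted its mean over the minimum. The test (limma on log2(normalized count + 1), adjusted p under 0.05) covered genes with a mean of at least 10 normalized counts. Of the 50, 43 met that minimum. Among them, 6 had a PLZF- mean under it and met it through PLZF+ cells alone (Cdkn2c, Tk1, Cdk1, Ccnb2, Ube2c and Cdc20), and 0 met it through PLZF- cells alone, so the tested genes are tilted towards higher values in PLZF+ cells. Over all 9234 genes tested, 2.48% were called higher and 4.97% lower (7.45% in either direction), so 2 of 43 is near the background and is not read as a result about these genes as a group. At an unadjusted p under 0.05, limma counted 12 of the 43 as higher and 0 as lower, against 8.32% and 12% of all genes tested. With voom weights, fitted to estimated reads, limma called 0 of the 43 in either direction at an adjusted p under 0.05. Because each library is a pool, the spread behind the p-values is one between pools of mice. With 2 libraries per subset, limma also draws each gene's spread towards that of other genes, so p-values do not rest on a gene's own pools alone. In bulk RNA, fewer cells of a type and less RNA per cell cannot be told apart.

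The order of the libraries was counted for each phase. Both PLZF+ libraries lay above both PLZF- libraries for 18 of 21 mitotic genes, 6 of 15 G1 genes and 3 of 14 S phase genes. Both lay below for 0, 2 and 1 of them. Among the tested genes alone, both lay above for 16 of 19 mitotic, 5 of 11 G1 and 3 of 13 S phase genes. Both lay below for 0, 2 and 1 of these. Over all genes tested, 24.1% had both above and 27.2% both below. Where a PLZF- library at 0 was set to the 3 reads that a 0 allows, the order was lost for Ccnb1 and E2f1, which left 17 mitotic, 5 G1 and 3 S phase genes. The summed level of the mitotic genes was 828 and 887 normalized counts in A6 and B6 and 1574 and 1524 in A7 and B7. The ratio of the subset means was 1.81. The G1 genes summed to 2196 and 2198 against 2546 and 2447, a ratio of 1.14. The S phase genes summed to 1422 and 1317 against 1444 and 1578, a ratio of 1.10. In normalized counts the sums of all 3 phases were apart between subsets, by a wide gap for the mitotic genes and by a narrow one for S phase. In FPKM the S phase sums overlapped, at 378 and 361 in A6 and B6 and 376 and 408 in A7 and B7, while the mitotic sums were 159.6 and 192 against 377 and 346. No test was made of the difference between phases.

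**Figure D1:**
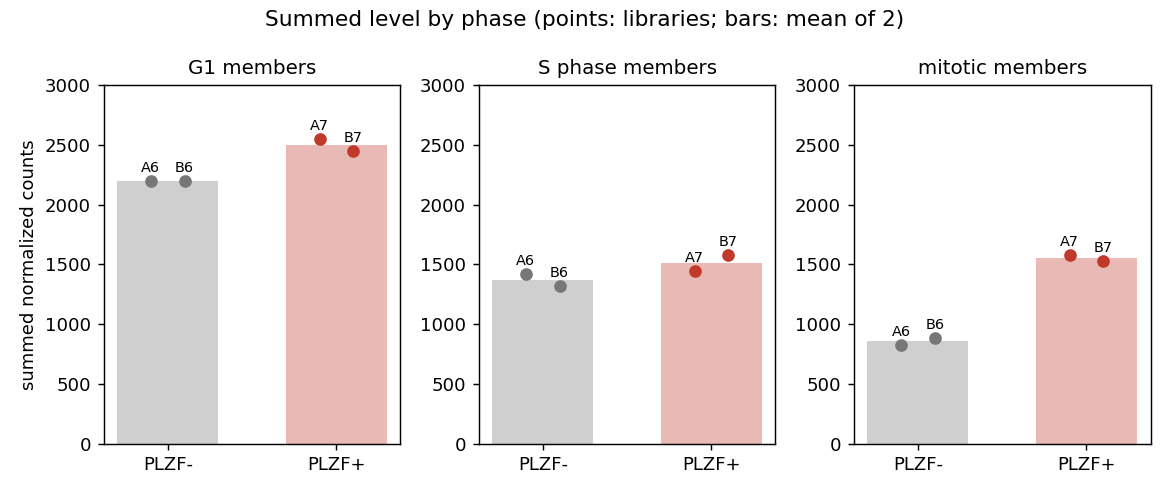
Summed normalized counts of the G1, S phase and mitotic genes (y axis, starting at 0) in each library (points) with the mean of the 2 libraries of each subset (bars). The mitotic sums lie at 828 and 887 in PLZF- and at 1574 and 1524 in PLZF+ libraries, while the G1 and S phase sums of the subsets lie closer together.

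The log2 fold changes of the tested genes were summarised in the same way. The median log2 fold change (PLZF+ over PLZF-) was 0.98 over the 19 tested mitotic genes, 0.58 over the 11 G1 genes and 0.26 over the 13 S phase genes, against −0.03 over all genes tested. These medians include the 6 genes that met the minimum only through PLZF+ cells, and they describe the tested genes, not all members. Over the tested genes whose PLZF- mean met the minimum, the medians were 0.81 (15 mitotic genes), 0.29 (10 G1) and 0.14 (12 S phase). The median of all genes was not taken under that rule. The G1 median turned to −0.042 without library A7 and was 0.12 on the FPKM table and 0.18 at loci of 1 gene. The S phase median was 0.016 at a minimum mean of 50, 0.048 without B6 and 0.13 without B7. The difference was above 0 for 18 of the 19 mitotic genes, for 7 of the 11 G1 genes and for 9 of the 13 S phase genes, against 48.6% of all genes tested.

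**Figure D2:**
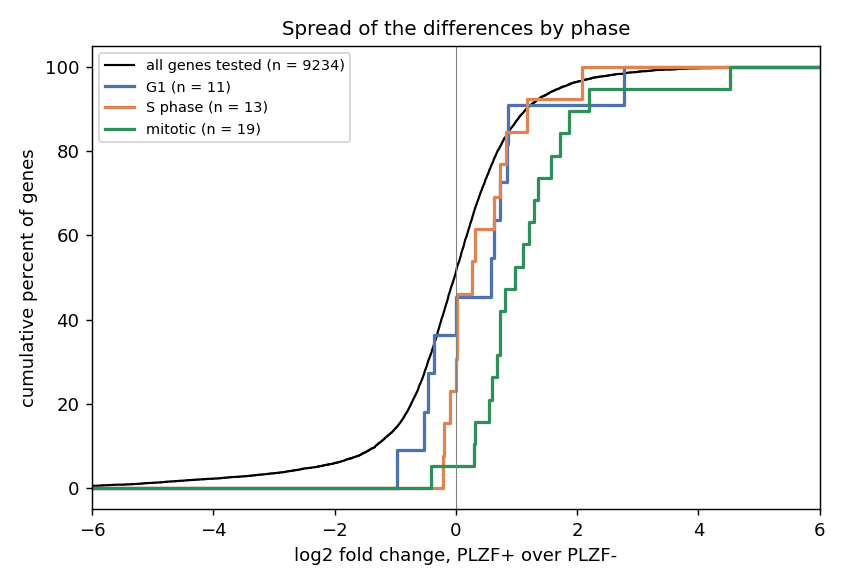
Cumulative percent of genes (y axis) at or below each log2 fold change of PLZF+ over PLZF- cells (x axis, shown from -6 to 6) for all 9234 genes tested and for the tested genes of each phase. The mitotic curve lies to the right of the curve of all genes, with a median of 0.98 against −0.03, and the S phase median is 0.26. The curves of the phases include the 6 genes that met the minimum mean only through PLZF+ cells.

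Among the mitotic genes, Cdk1, the kinase that drives entry into mitosis, was close to absent from PLZF- cells. It stood at 0 and 2.44 normalized counts in A6 and B6 and at 45.2 and 37.9 in A7 and B7 (locus chr10:69336635-69352912 of mm10, which spans the gene). These values rest on 2 reads in the PLZF- libraries together and on 141 in the PLZF+ libraries. The ratio of the subsets was 29.2, with an exact 95% interval of 7.95 to 244 that covers counting error only. The subsets did not overlap, and the log2 fold change was 4.52 ± 1.21 (SE, n = 2 libraries per subset, limma adjusted p = 0.041). The call was lost without library A6 (adjusted p = 0.069), A7 (0.73) or B7 (0.61), with limma's voom weights (0.24), with a pseudocount of 0.25 (0.12), without a minimum mean (0.065) and without trend and robust moderation (0.059). It held after thinning to equal depth (0.031). The authors' deposited table gives a q-value of 0.62 for Cdk1.

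Stmn1, which encodes the microtubule-destabilizing protein stathmin, stood at 23.6 and 37.8 normalized counts in A6 and B6 and at 115 and 87.1 in A7 and B7. Both PLZF+ libraries were well above both PLZF- libraries, and the log2 fold change was 1.71 ± 0.47 (SE, n = 2, limma adjusted p = 0.046). On the FPKM scale, which is per length, Stmn1 had the highest mitotic level in PLZF+ cells, at 83.6 and 64.6 in A7 and B7, against 17.6 and 28.5 in A6 and B6. Its locus, chr4:134468320-134473843, also lists the small RNA gene Gm23634. Leaving out any 1 of the 4 libraries removed the call (adjusted p from 0.059 to 0.47). So did thinning to equal depth (0.069), voom weights (0.079), a pseudocount of 0.25 (0.057), no minimum mean (0.12) and a fit without trend and robust moderation (0.16). The authors' deposited table gives a q-value of 0.088.

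The cyclins of G2 and mitosis did not pass. Ccna2, the A cyclin of S phase and G2, stood at 23.6 and 33.3 normalized counts in A6 and B6 and at 67.7 and 79.3 in A7 and B7, with a log2 fold change of 1.35 ± 0.49 (limma adjusted p = 0.14). Ccnb1, the main mitotic cyclin partner of Cdk1, had 0 reads in both PLZF- libraries and 26 and 5 in A7 and B7. Its mean level in PLZF+ cells was at least 2.17-fold higher, set against 3 reads per PLZF- library, and it was not tested because of its low mean. That bound rests on A7, since B7 alone lay at 0.64 times the same floor. Ccnb2, a second B cyclin, stood at 6.75 and 11 normalized counts against 19.8 and 25.7 (log2 fold change 1.29 ± 0.82). Both PLZF+ libraries lay above both PLZF- libraries for Ccna2 and Ccnb2, while for Ccnb1 the order of B7 cannot be read at this depth.

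Of the mitotic kinases and their partners, Plk1, which acts in centrosome maturation and spindle assembly, had the smallest p after the 2 called genes. Its row, which also holds the gene Dctn5, stood at 77.6 and 51.2 normalized counts in A6 and B6 and at 162 and 133 in A7 and B7 (log2 fold change 1.21 ± 0.38, limma adjusted p = 0.083). Reads of the 2 genes on that row cannot be told apart. Without it the summed mitotic level kept a ratio of 1.77. Aurka, the spindle pole kinase, was below the minimum, with 5 and 0 reads in A6 and B6 and 16 in each PLZF+ library. In normalized counts, which allow for depth, Aurka stood at 8.44 and 0 against 9.91 and 8.93. Aurkb, the kinase of the chromosomal passenger complex, stood at 18.6 and 19.5 normalized counts against 19.8 and 28.5. For both Aurka and Aurkb the nearest libraries of the 2 subsets were apart by less than 1 read. Birc5, the survivin subunit of the same complex, stood at 11.8 and 20.7 against 22.3 and 35.7 normalized counts (log2 fold change 0.81 ± 0.68, adjusted p = 0.55).

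Mki67 and Top2a, both widely used marker genes of dividing cells, had the highest normalized counts of the mitotic genes. Mki67, which encodes the Ki-67 antigen, stood at 251 and 137 normalized counts in A6 and B6 and at 308 and 307 in A7 and B7, a log2 fold change of 0.73 ± 0.31 (limma adjusted p = 0.20). Top2a, the DNA topoisomerase that untangles sister chromatids, stood at 159 and 191 against 282 and 277, a log2 fold change of 0.68 ± 0.26 (adjusted p = 0.17). The PLZF+ libraries lay close together for both genes, and the lower PLZF- library was B6 for Mki67 and A6 for Top2a. Hmgb2, a chromatin protein of the HMG-box family, stood at 113 and 143 against 170.3 and 145 normalized counts, with a log2 fold change of 0.30 ± 0.32 (adjusted p = 0.64). Its subsets were apart by a narrow margin.

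Nusap1, Kif11 and Tpx2 differed widely between the PLZF- libraries. Nusap1, a spindle microtubule protein, stood at 5.06 and 46.3 normalized counts in A6 and B6 and at 49.5 and 74.2 in A7 and B7 (log2 fold change 1.86 ± 0.83, limma adjusted p = 0.23). Kif11, the kinesin that separates spindle poles, stood at 23.6 and 78.1 against 84.2 and 87.6. Tpx2, a spindle assembly factor, stood at 5.06 and 20.7 against 32.2 and 34. In these 3 genes A6 was far below B6, while B6 came near the PLZF+ libraries or lay between them and A6.

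Cenpf, a kinetochore protein, stood at 18.6 and 15.9 against 42.7 and 34 normalized counts, and Bub1b, a kinase-like protein of the spindle checkpoint, at 28.7 and 18.3 against 29.7 and 49.7. Ube2c, the ubiquitin-conjugating enzyme of the anaphase-promoting complex, stood at 8.44 and 2.44 against 41.5 and 15.1 (log2 fold change 2.20 ± 1.03, limma adjusted p = 0.25). The subsets were apart for these 3 genes as well, though for Bub1b by less than 1 read of library A6. The 3 mitotic genes whose subsets overlapped were Bub1, the checkpoint kinase, at 11.8 and 17.1 against 16.7 and 26.8, Cdc20, the mitotic activator of the anaphase-promoting complex, at 10.1 and 7.32 against 21.7 and 8.37, and Cenpe, a kinetochore motor, at 23.6 and 34.1 against 16.7 and 26.8. Cenpe had the one mitotic log2 fold change below 0, −0.41 ± 0.63.

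**Figure D3:**
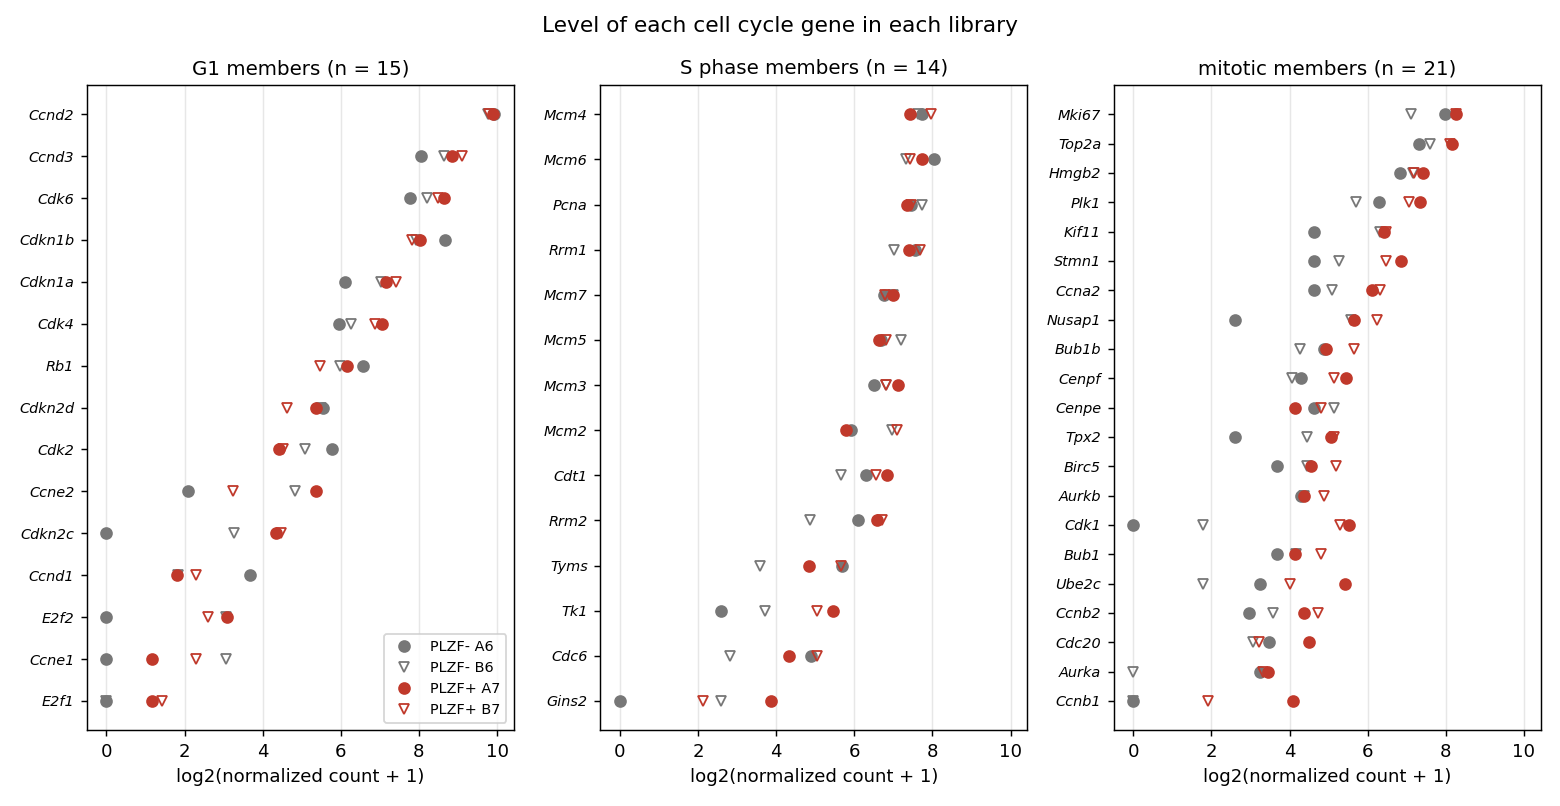
Level of each of the 50 genes on log2(normalized count + 1) (x axis) in PLZF- libraries A6 and B6 (grey) and PLZF+ libraries A7 and B7 (red), with genes of each phase ordered by their mean. Red points lie to the right of grey points for 18 of the 21 mitotic genes, while in S phase they are mixed for 10 of 14 genes.

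The order of the mitotic genes was checked under other scales. Both PLZF+ libraries lay above both PLZF- libraries for 16 of 21 genes after reads were thinned to the smallest library (26.3% of all genes tested), for 15 of 21 on the FPKM scale (23.2%), for 18 after median-ratio scaling (25%) and for 19 after scaling to equal totals (27.8%). With any 1 library left out, 19 of 21 had every PLZF+ library above every PLZF- library, against 34.2% to 39% of all genes tested. Without A6 or without B7, 1 had every PLZF+ library below. Leaving out a library can only keep or add genes in such counts, so the count of 18 with all 4 libraries could not fall. The counts of 21 include genes under the minimum mean, while the shares cover tested genes. Of the 12 mitotic genes whose promoter held a CHR, 11 had their subsets apart with PLZF+ above. So did 3 of the 5 whose promoter held none, among them Ccnb1, whose order cannot be read at this depth. For CCAAT the counts were 12 of 15 with a match and 2 of 2 without. For the E2F core they were 3 of 3 with a match and 11 of 14 without. These are counts of few genes, with no test.

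Among S phase genes, neither Pcna nor any of the Mcm genes passed the test. Pcna, the sliding clamp of DNA polymerase, had the highest S phase level per length, at 112 and 132 FPKM in A6 and B6 and 96.2 and 108 FPKM in A7 and B7. In normalized counts it stood at 174 and 211 against 162 and 174, a log2 fold change of −0.19 ± 0.28 (SE, n = 2, limma adjusted p = 0.75). It was the one S phase gene with both PLZF+ libraries lower, and the gap between the nearest libraries was small beside the gap within PLZF- cells.

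The Mcm2 to Mcm7 proteins form the hexamer that unwinds DNA at the fork. Their log2 fold changes ran from −0.21 (Mcm5) to 0.31 (Mcm3), with standard errors of 0.29 to 0.50, and all 6 had overlapping subsets. Mcm6 stood at 263 and 159.8 normalized counts in A6 and B6 and at 212 and 171 in A7 and B7 (−0.11 ± 0.31). Mcm4 stood at 213 and 199 against 169.7 and 248 (log2 fold change 0.00 ± 0.29, limma adjusted p = 0.997), and Mcm7 at 108 and 126 against 127 and 109.9 (0.02 ± 0.33, adjusted p = 0.98). As a ratio between the libraries of a subset, Mcm2 differed most of the 6. It stood at 59 and 123 in A6 and B6 and at 54.5 and 136 in A7 and B7, with the A well lower in each subset.

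The 3 S phase genes with both PLZF+ libraries higher supply nucleotides or license origins. Tk1, thymidine kinase of the salvage pathway, stood at 5.06 and 12.2 normalized counts in A6 and B6 and at 42.7 and 31.8 in A7 and B7, a log2 fold change of 2.08 ± 0.75 (limma adjusted p = 0.14). Rrm2, the regulated subunit of ribonucleotide reductase, stood at 67.5 and 28.1 against 94.8 and 104, a log2 fold change of 1.17 ± 0.48 (adjusted p = 0.19). On the FPKM scale Rrm2 overlapped, at 27.6 and 9.9 against 27.6 and 30.7. Cdt1, the loader of the MCM helicase onto origins, stood at 77.6 and 50 against 114 and 93.8 normalized counts (0.72 ± 0.40, adjusted p = 0.35). None of the 3 passed. The locus of Tk1 spans 30242 bases against 10567 of the annotated gene, and that of Rrm2 spans 51097 against 5906. The loci of Tk1 and Cdt1 overlap other protein-coding genes, Syngr2 and Afmid among those of Tk1 and Gm20388 at Cdt1.

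The other S phase genes overlapped between subsets. Rrm1, the constant partner of Rrm2, stood at 186 and 129 normalized counts against 169 and 204 (log2 fold change 0.26 ± 0.31, limma adjusted p = 0.69). Tyms, thymidylate synthase, stood at 50.6 and 11 against 27.9 and 49.7, and Cdc6, which loads the helicase with Cdt1, at 28.7 and 6.1 against 19.2 and 31.8. Each of the latter varied more within PLZF- cells than between subset means. Gins2, a subunit of the replicative helicase, was below the minimum, with 0 and 4 reads in A6 and B6 and 22 and 6 in A7 and B7. In normalized counts it stood at 0 and 5.05 against 13.5 and 3.35. At an unadjusted p under 0.05, limma counted 2 of the 13 tested S phase genes as higher (8.32% of all genes tested) and 0 as lower (12%), and voom weights called 0.

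Among G1 genes, 2 of the 3 D-type cyclins were abundant in every library, and none passed the test. Ccnd2 stood at 973 and 868 normalized counts in A6 and B6 and at 953 and 893 in A7 and B7, a log2 fold change of 0.00 ± 0.18 (SE, n = 2, limma adjusted p = 0.99). Its standard error was the smallest among the 43 tested genes. Ccnd3, the D cyclin of many lymphocytes, stood at 263 and 398 against 457 and 549.9 normalized counts, with a log2 fold change of 0.63 ± 0.25 (adjusted p = 0.18).

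On the FPKM scale the libraries of Ccnd3 overlapped instead, at 234 and 179 in A6 and B6 and 185 and 265 in A7 and B7. The normalized counts and the FPKM of this gene therefore order the libraries differently, and the reason was not tested. Per length, Ccnd3 lay above Ccnd2 in every library, by a ratio of FPKM of 2.30, 2.004, 1.71 and 2.67 in A6, B6, A7 and B7. Ccnd1, the third D cyclin, had 7 and 2 reads in A6 and B6 and 4 and 7 in A7 and B7. In normalized counts, which allow for depth, it stood at 11.8 and 2.53 against 2.48 and 3.91.

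The kinase partners of the D cyclins were higher in both PLZF+ libraries without passing. Cdk4 stood at 60.7 and 75.6 normalized counts in A6 and B6 and at 133 and 116 in A7 and B7, a log2 fold change of 0.86 ± 0.37 (limma adjusted p = 0.21). Cdk6 stood at 218 and 294 against 398 and 360.5, a log2 fold change of 0.58 ± 0.25 (adjusted p = 0.21). Per length, Cdk4 lay above Cdk6 in every library, with FPKM ratios of 1.39 and 1.39 in PLZF- and of 1.85 and 1.81 in PLZF+ libraries. Cdk2, the partner of E cyclins, had the opposite order, at 54 and 32.9 against 20.4 and 21.8 normalized counts, with a log2 fold change of −0.97 ± 0.58 (adjusted p = 0.39).

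The log2 fold changes of the inhibitors of these kinases differed in sign, and none passed. Cdkn1a, the p21 inhibitor, stood at 67.5 and 129 normalized counts in A6 and B6 and at 142 and 169 in A7 and B7 (log2 fold change 0.73 ± 0.38, limma adjusted p = 0.31). Cdkn1b, the p27 inhibitor of quiescent lymphocytes, stood at 405 and 240.3 against 259.5 and 226 (−0.36 ± 0.29, adjusted p = 0.52). Library A6 was the lowest of the 4 for Cdkn1a and the highest for Cdkn1b. The FPKM ratio of Cdkn1b to Cdkn1a was accordingly 3.85 in A6 and 1.15, 1.16 and 0.866 in B6, A7 and B7.

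Cdkn2c, the p18 inhibitor of Cdk4 and Cdk6, stood at 0 and 8.54 normalized counts against 19.2 and 21.2 (log2 fold change 2.78 ± 1.39, adjusted p = 0.29 by limma). Cdkn2d, the p19 inhibitor of the same kinases, stood at 45.5 and 43.9 against 40.3 and 23.4 (−0.53 ± 0.54). The first was apart with PLZF+ higher and the second apart with PLZF+ lower. Rb1, the retinoblastoma protein, overlapped, at 94.5 and 62.2 against 70.6 and 43.5.

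Of the E cyclins and E2F activators, Ccne2 alone met the minimum. Ccne2 stood at 3.23 and 27.2 normalized counts in A6 and B6 and 40.1 and 8.44 in A7 and B7, overlapping widely. Ccne1 had 0 and 6 reads in A6 and B6 and 2 and 7 in A7 and B7. E2f1 had 0 reads in both PLZF- libraries and 2 and 3 in A7 and B7, and E2f2 had 0 and 6 against 12 and 9. In normalized counts, which allow for depth, Ccne1 stood at 0 and 7.32 against 1.24 and 3.91. E2f2 stood at 0 and 7.32 against 7.43 and 5.02, so the subsets overlapped for both genes. A count of 0 allows up to 3 reads per library, so no difference was detectable for E2f1 at this depth. At an unadjusted p under 0.05, limma counted 3 of the 11 tested G1 genes as higher (8.32% of all genes tested) and 0 as lower (12%), and voom weights called 0.

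**Figure D4:**
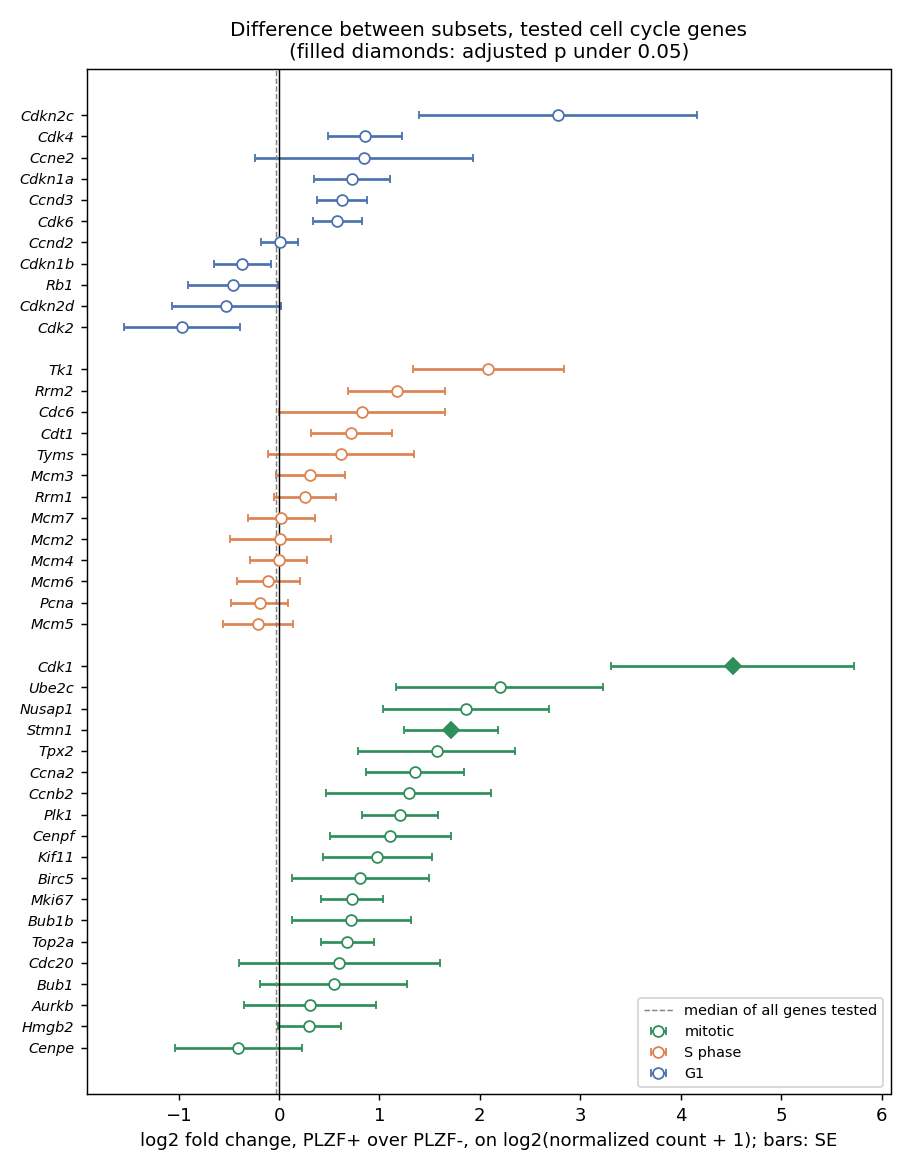
Log2 fold change of PLZF+ over PLZF- cells (x axis, on log2(normalized count + 1)) with its limma standard error for the 43 tested genes, ordered within each phase. Filled diamonds mark Cdk1 (4.52) and Stmn1 (1.71), the 2 genes past the threshold, and the dashed line marks the median of all genes tested (−0.03).

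Further cell cycle genes, taken from 3 lists of genes outside the 50, were counted in the same fit. Of 42 other genes of G2 and mitosis, 34 were tested, 1 rose and 0 fell, against 2.48% and 4.97% of all genes tested. A call of 1 in 34 is near that share and is not read as a result about the list. The gene that rose was Cenpa, the centromeric histone H3 variant. It stood at 103 and 123 normalized counts in A6 and B6 and at 255 and 238 in A7 and B7, a log2 fold change of 1.12 ± 0.29 (limma adjusted p = 0.035). Next by p came Ncapd2, a condensin subunit, at 1.58 ± 0.51 (adjusted p = 0.090), and Cdca3, a mitotic entry factor, at 3.60 ± 1.22 (0.11), both on the log2 scale. Of the 42, 22 had both PLZF+ libraries higher and 1 had both lower. Among the 34 tested these numbered 18 and 1, against 24.1% and 27.2% of all genes tested, and the median over those tested was 0.59. The Cenpa call was lost without any 1 of the 4 libraries (adjusted p from 0.065 to 0.35) and on the FPKM scale (0.11).

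Of 35 other S phase genes, 32 were tested and 0 were called in either direction by limma, against 7.45% of all genes tested. The smallest adjusted p was 0.14, for Dut, the dUTPase, with a log2 fold change of 1.63 ± 0.60. Gins4, a helicase subunit, stood at 0 and 28.1 normalized counts in A6 and B6 and at 35.9 and 29 in A7 and B7. Its log2 fold change of 2.63 ± 1.33 (limma adjusted p = 0.29) thus rests on A6 at 0. At an unadjusted p under 0.05 there were 2 higher and 0 lower (8.32% and 12% of all genes tested), and voom weights called 0. Both PLZF+ libraries were higher for 13 of the 35 and lower for 5. Among the 32 tested these numbered 12 and 5, against 24.1% and 27.2% of all genes tested, and the median over those tested was 0.12.

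Of 28 other genes of G1 and quiescence, 20 were tested, 2 fell and 0 rose, against 4.97% and 2.48% of all genes tested. Btg2, an antiproliferative gene of resting lymphocytes, stood at 1891 and 1739 normalized counts in A6 and B6 and at 1088 and 909 in A7 and B7, a log2 fold change of −0.87 ± 0.18 (limma adjusted p = 0.0095). Tfdp2, a partner of E2F factors, stood at 42.2 and 98.8 against 12.4 and 11.7, a log2 fold change of −2.33 ± 0.63 (adjusted p = 0.042). Tob1, a relative of Btg2, differed by −2.16 ± 0.64 on the log2 scale without passing (adjusted p = 0.068). Btg2 lost its call without A6 (adjusted p = 0.094), A7 (0.11) or B7 (0.28), and Tfdp2 without any 1 of the 4 libraries (0.077 to 0.27). The median over the tested genes of this list was 0.03. Both PLZF+ libraries were higher for 5 of the 28 genes and lower for 5. Among the 20 tested these numbered 2 and 5, against 24.1% and 27.2% of all genes tested.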

How the data were processed

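RNA of 2 PLZF+ and 2 PLZF- libraries was sequenced by SMART-seq2. Per the submitters' processing notes, HISAT 0.1.6, SAMtools 1.2, Cufflinks 1.2 and Cuffdiff were used with mm10. Neither the annotation nor the strand setting is given in the sources used here. Reads of overlapping genes therefore cannot be told apart. The authors deposited normalized counts, a signal scaled per library and not raw counts, a table of FPKM, and a table of comparisons with p-values and q-values. Columns name the subset and a code, without a replicate number. The codes are taken as plate wells, which no label states.

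Rows of a symbol that overlapped were summed. Each of the 50 loci overlapped its annotated gene. The locus was over 1.5 times the gene's length for 10 (Ccnd1, Ccnd2, Ccne2, Cdk4, Tk1, Rrm2, Gins2, Ccna2, Plk1 and Cdc20). Another protein-coding gene was overlapped by 15 (Ccnd1, Ccnd3, Ccne2, Cdk2, Cdk4, Rb1, Mcm7, Tk1, Gins2, Cdt1, Ccna2, Ube2c, Plk1, Cdc20 and Nusap1). In normalized counts, 1 read was worth 1.69 in A6, 1.22 in B6, 0.619 in A7 and 0.558 in B7. Reads were estimated from these steps, and 92.5% to 94.3% of values above 0 were whole within 0.05. Rn45s, listed at 0 in B7 and at 26.8% to 33.2% of the total elsewhere, was left out. Genes with a mean of at least 10 normalized counts were tested with limma 3.58.1 (R 4.3.3, with trend and robust moderation) on log2(normalized count + 1). Tests were two-sided, p-values were adjusted over all these genes by Benjamini-Hochberg, and the threshold was 0.05. Fold changes on that scale can understate changes of low genes. A library at 0, as A6 for Cdkn2c and Gins4, weighs heavily in them and can enlarge them beyond the ratio of the subset means. The fit was also run on simulated data that gave every gene the same spread setting, unlike these libraries. That run does not bear on the calls made here. Ratios of reads carry exact 95% intervals, which, like floors of 3 reads, cover counting error only. Tables and figures used Python 3.11.15 with numpy 2.4.6, pandas 2.3.3, matplotlib 3.10.9 and scipy 1.17.1.

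The members, the other gene lists and the markers were chosen with earlier results of these data known. Members past the threshold, and in each phase the 5 with the highest mean FPKM and the 3 with the smallest p, get full statistics, and the rest are given by their values. From the other lists the text names genes past the threshold and the 3 with the smallest p, of which 1 gene is not reported here. Alternatives were the pseudocount, the filter, the scaling, the FPKM table, the test, thinning, the handling of loci, the well letter, leaving out a library and the authors' q-values.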

Additional observations from a re-analysis of the deposited data

How the results depend on the processing

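No paired analysis was possible because the column names carry no replicate number. The well letter was used as a term only, and no label says that it pairs libraries. A count test on recovered reads was not run, since too few values were whole. The fit with voom weights, the thinning and the exact intervals did use the estimated reads, rounded to whole numbers, and carry that limit. Of the 50 genes, 0 were called higher with a pseudocount of 0.25, without a minimum mean, without the trend and robust fit, with voom weights or by the authors' q-values, 1 after thinning or at loci of 1 gene, 4 with the well letter (Cdk1, Nusap1, Plk1 and Stmn1), and 0 to 2 with a library left out (2 without B6, Cdk1 and Nusap1). With a minimum mean of 50 the 2 called were Plk1 and Stmn1. None was called lower under any of these. Over all genes, calls higher and lower numbered 229 and 459, and 108 and 277 without a minimum, 26 and 179 without the trend and robust fit, 426 and 690 with the well letter, and 22 to 224 and 95 to 273 with a library left out. The G1 median of 0.58 was 0.12 on FPKM, 0.71 after thinning, 0.18 at loci of 1 gene and −0.042 (without A7) to 0.80 (without B6) with a library left out. The S phase median was 0.016 at a minimum of 50. The mitotic median was 1.11 without a minimum, 0.84 on FPKM, 0.85 with voom, 1.10 after thinning and 0.81 to 1.11 with a library left out. Scaling to equal totals moved the median of all genes by 0.11. S phase genes, tested or not, with all PLZF+ libraries higher numbered 5 under that scaling (27.8% of all genes tested). They numbered 6 to 7 with a library left out (34.2% to 39%), when 1 to 4 had all lower. Leaving out a library can only keep or add genes in either count. These counts of library order were chosen after seeing the data. Of the other G1 genes, 1 was lower with a pseudocount of 0.25, no minimum, a minimum of 50, equal totals, FPKM or thinning, 0 without the trend and robust fit, and 0 to 1 with a library left out. Other S phase genes higher numbered 1 with the well letter and 0 to 1 with a library left out. Other mitotic genes higher numbered 0 without a minimum, on FPKM or without the trend and robust fit, 4 with the well letter and 0 to 1 with a library left out. Where a lost call followed a changed test or library, the cause was not tested.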
